A study of Mus musculus with 4 samples.

Results

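Plvap-negative barcodes that pass an endothelial count gate were described in single-cell RNA sequencing of mouse kidney. The gate took barcodes with Plvap at 0, at least 4 UMIs (unique transcript molecules) over Pecam1, Cdh5, Flt1, Kdr, Egfl7 and Emcn, fewer than 10 UMIs over C1qa, C1qb and C1qc, and at most 1 UMI over Cd3d, Cd3e and Cd3g. The members were thus chosen by raw UMI counts of the genes just named. The gate was meant for glomerular and arterial endothelium. It found 739 of the 31041 barcodes that held at least 500 UMIs and 200 genes and at most 50% mitochondrial UMIs. The endothelial label held for only a minority of them, as given below, so the members are called by the gate and the genes they carry.

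The study compared mouse kidneys that carry a TrnE point mutation with those of wild-type C57BL/6J animals, TrnE being the mitochondrially encoded transfer RNA that carries glutamate. Mutant 1 had a mutation load of 79% and mutant 2 of 76%, and wild type 1 and wild type 2 were labelled wild-type. All 4 kidneys were digested with Liberase TM and DNase I, freed of red cells and sorted by a viability dye, and each gave 1 library of a 10x Genomics 3' kit. The sources used here do not give age, sex, litter or processing day, and p-values measure only the spread between these libraries.

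Plvap encodes a protein of the diaphragms that span the fenestrae and caveolae of capillary endothelium. Most kidney capillaries have such diaphragms, while the fenestrae of the mature glomerular capillary have none and arterial endothelium is continuous, so both are known to lack Plvap. Ehd3, a membrane trafficking ATPase, marks glomerular endothelium in the kidney, and Sost encodes sclerostin, a secreted Wnt antagonist best known from bone.

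The 4 libraries held between 42121175 and 70013861 UMIs, and between 5768 and 9774 barcodes passed the filter in each. Pairs of libraries shared 13 to 20 filtered barcode sequences, and 0 of the members. Wild type 2 stood apart in the endothelial gate, with 36 Plvap-positive barcodes against 626, 782 and 767 in mutant 1, mutant 2 and wild type 1. Values below are in that order, with wild type 2 last where it is given. Levels are given as CPM, a gene's UMIs per 1000000 UMIs, both summed over the barcodes of a library.

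Of the 739 members, mutant 1 held 131, mutant 2 held 233, wild type 1 held 111 and wild type 2 held 264. They were checked with 10 endothelial genes that the gate did not read, Tie1, Tek, Eng, Esam, Ptprb, Robo4, Erg, Cldn5, Ramp2 and Ecscr, a split chosen after the values were seen. At least 3 UMIs of these genes were present in 207 members, or 28%, called endothelial-panel members from here on. By library they numbered 100, 75, 31 and 1. Another 52 members had 1 or 2 such UMIs and 480 had 0.

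**Figure D1:**
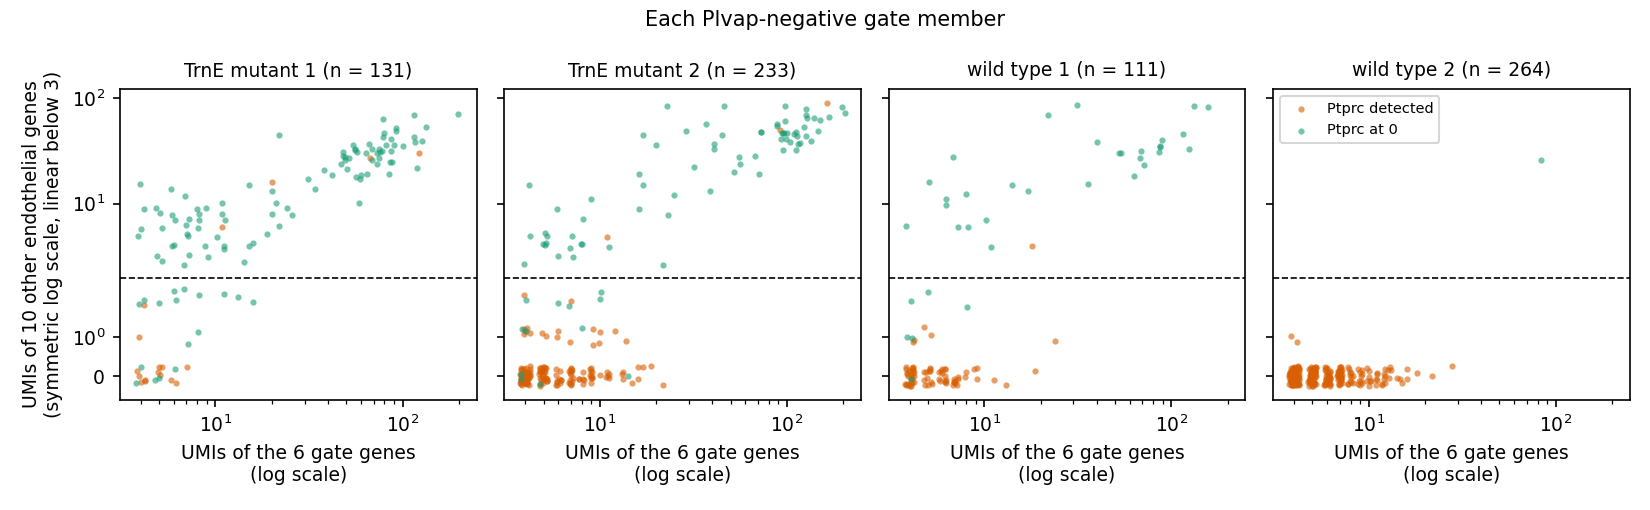
Each point is 1 gate member, with its UMIs of the 6 gate genes on the x axis (log scale) and of 10 other endothelial genes on the y axis (symmetric log scale), points jittered, coloured by detection of the leukocyte gene Ptprc. Above the dashed line lie 100, 75, 31 and 1 members; in wild type 2 nearly all lie at 0 endothelial-panel UMIs and carry Ptprc.

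The 532 members below 3 panel UMIs carried leukocyte genes. Ptprc, the pan-leukocyte phosphatase CD45, was detected in 497 of them and in 8 of the 207 endothelial-panel members. Of the 532, 382 had UMIs of only 1 of the 6 gate genes, and 357 passed on Pecam1 alone, an adhesion molecule of endothelium that leukocytes and platelets also carry. At least 5 UMIs of the monocyte list were present in 409 of the 532 and in 24 of the 207. For the macrophage list, which holds Lyz2 and the widely expressed Cd74, these counts were 499 and 30. For the B cell list they were 356 and 5. In wild type 2, of 263 members below 3 panel UMIs, 220 reached 5 UMIs of the monocyte list and 256 of the B cell list. The lists thus overlapped, and passing 1 of them does not name a cell type.

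The libraries differed in which leukocyte genes these members carried. Cd79a, a B cell receptor chain, was detected in 251 of 263 in wild type 2 and in 3 of 31, 49 of 158 and 21 of 80 in the other libraries. Bank1, a B cell scaffold protein, stood at 304, 808, 729 and 2509 CPM and Fcrl5, a receptor of B cell subsets, at 0, 51.6, 11.3 and 329 CPM. Siglech, a marker of plasmacytoid dendritic cells, had 974, 389, 754 and 0.265 CPM, in 39 barcodes of which 1 was from wild type 2. Ace and Treml4, which nonclassical monocytes carry, were each detected in 117 barcodes, for Ace 2, 79, 30 and 6 by library. The gate members of wild type 2 were thus mainly B cell gene-carrying barcodes, and those of mutant 2 and wild type 1 a mixture.

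The thresholds sat at different depths of this mixture. At an endothelial sum of exactly 4, the lowest the gate takes, 8 of 196 members had at least 3 panel UMIs. At a sum of 3, just outside, 6 of 277 barcodes did. At 1 Plvap UMI, just outside the other limit, 94 of 135 barcodes did, with a median of 1581 UMIs per barcode. Of all 2211 Plvap-positive barcodes of the same gate 2143 did. The C1q limit removed 34 barcodes with 10 or more UMIs and left 2 members with 5 to 9, and the Cd3 limit lay between 66 members with 1 UMI and 12 barcodes with 2. Scrublet, a doublet caller, marked 14 of the 739 members and 3 of the 207.

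**Figure D2:**
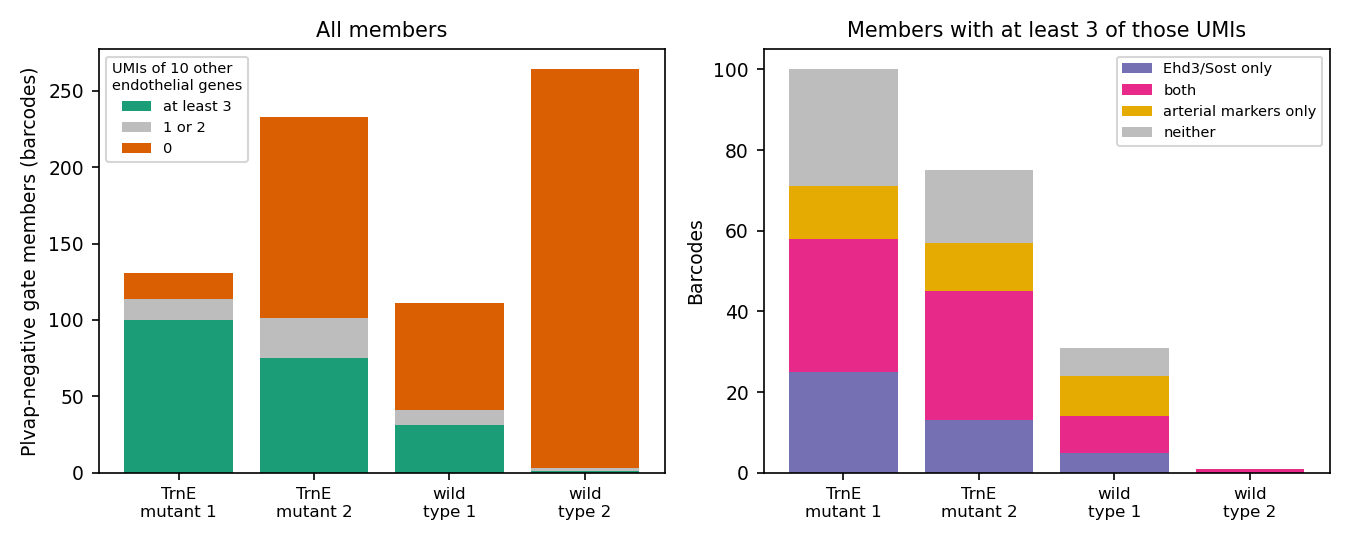
Left: gate members per library, stacked by UMIs of the 10 other endothelial genes. Right: the endothelial-panel members, stacked by whether they held at least 2 UMIs of Ehd3 and Sost, at least 2 UMIs of 6 arterial genes, both or neither. Wild type 2 has the tallest bar on the left, 264, and 1 barcode on the right.

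Among the 207 endothelial-panel members, the marker lists read as glomerular first. The summed level of the 12 genes of the glomerular list was 9739, 12986 and 11481 CPM in the 3 libraries with more than 1 such barcode, and 10890 CPM in the 1 barcode of wild type 2. In Plvap-positive barcodes the same sum was 1460, 1538, 1510 and 1495 CPM. This contrast is the gate's own, so it is a description without a test, as are all comparisons with Plvap-positive barcodes below. The median depth was similar, 4275 UMIs per endothelial-panel member and 4204 per Plvap-positive barcode.

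Of the glomerular list, 12 of 12 genes were higher than in Plvap-positive barcodes in each of mutant 1, mutant 2 and wild type 1. Over all 3946 genes whose mean reached 50 CPM, 19.1% were higher in all 3 libraries and 23.1% lower in all 3. Ehd3 stood at 1741, 2057 and 2039 CPM against 287, 271 and 255, and the groups did not overlap. Plat, tissue plasminogen activator, stood at 3275, 6225 and 5510.2 CPM against 284, 475 and 503. Lpl, lipoprotein lipase, stood at 468, 447 and 499 CPM against 25.8, 24.1 and 4.73.

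The other glomerular-list genes followed the same order with differing gaps. Pi16, a secreted peptidase inhibitor, had 1178, 1336 and 594 CPM against 97, 87.4 and 34.3. Gata5, a zinc-finger transcription factor, had 73.5, 152 and 76.7 CPM against 1.19, 3.79 and 1.95. Mapt, the microtubule protein tau, had 264, 222 and 364 CPM against 35, 27.2 and 23.7. Tspan7, Smad6, Hecw2, Nostrin and Cyp26b1, the last a retinoic acid hydroxylase, were also higher in each library, Cyp26b1 at 571, 295 and 409 CPM against 264, 72.4 and 164. Pi16 was lowest in wild type 1 and Plat and Gata5 were lowest in mutant 1, so the libraries had no shared order over the list.

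Sost differed between libraries. It stood at 223, 278 and 12.8 CPM in endothelial-panel members, against 7.56, 23.6 and 3.34 in Plvap-positive barcodes. The 1 endothelial-panel member of wild type 2 held 3 Sost UMIs, or 473 CPM. In T cell gate barcodes (at least 3 UMIs over Cd3d, Cd3e and Cd3g), which should lack the gene, 0.112% of 6267 had a Sost UMI, at a median of 5194 UMIs. Ehd3 was found in 66.2% of endothelial-panel members, 50.2% of Plvap-positive barcodes and 18.1% of T cell gate barcodes, so single Ehd3 UMIs were not specific.

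**Figure D3:**
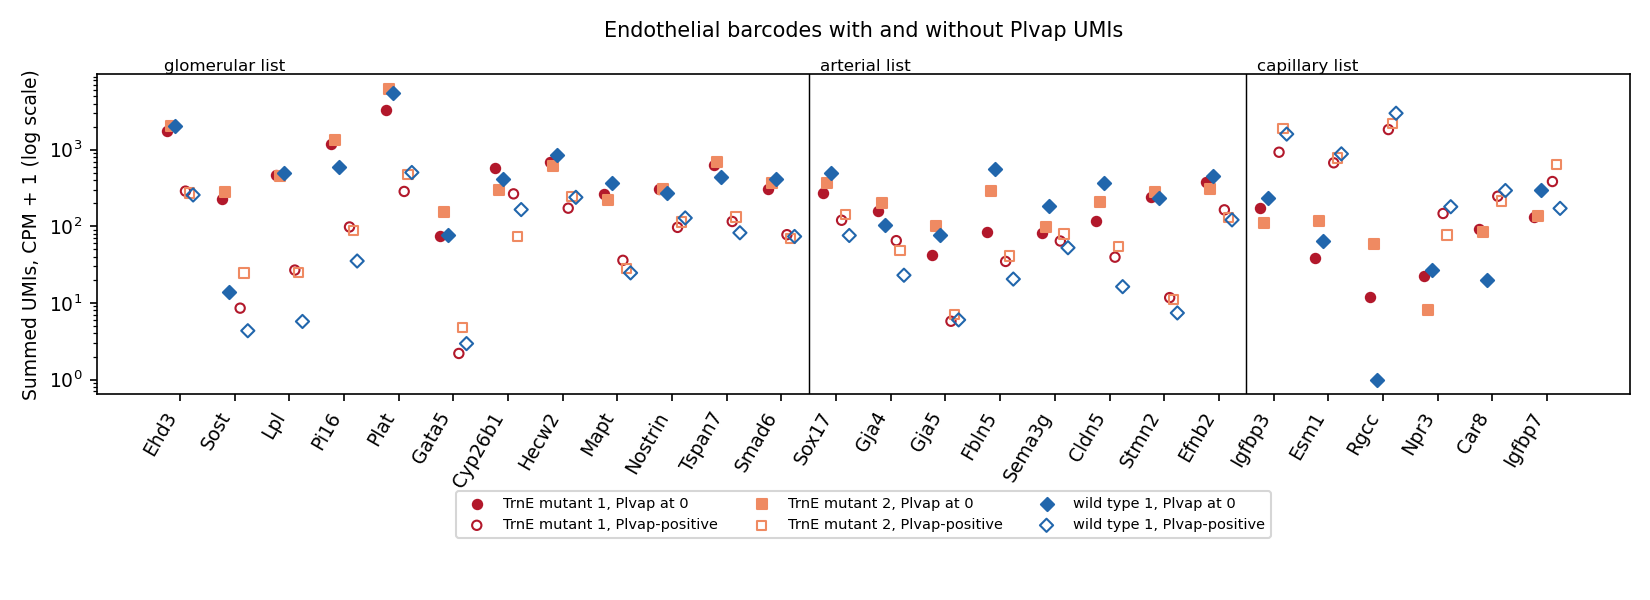
Summed UMIs in CPM plus 1 (log scale) for glomerular, arterial and capillary list genes in endothelial barcodes with Plvap at 0 (filled) and Plvap-positive barcodes (open), for the 3 libraries with more than 1 endothelial-panel member. Filled points lie above open ones for all 12 glomerular genes, and the filled wild type 1 point for Sost lies far below those of the mutants.

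Arterial-list genes were higher in endothelial-panel members as well. Of the 15 genes 10 reached a mean of 50 CPM, of which 7 were higher in all 3 libraries, the panel gene Cldn5 among them, and 0 lower. Sox17 stood at 272, 369.8 and 499 CPM against 119, 141 and 74.9, and Fbln5 at 84.3, 290.2 and 563 against 33.8, 39.9 and 19.5. Efnb2, a membrane-bound ephrin of arterial endothelium, stood at 375, 304 and 447 CPM against 163, 129 and 120.3. Gja4 stood at 155, 199 and 102 CPM against 64, 47.7 and 22, while Gja5 stood at 40.8, 101 and 76.7 against 4.77, 6.02 and 5.01, and neither overlapped. Gja5 was below the level set for the count. Stmn2, a microtubule regulator best known from neurons, stood at 237, 278 and 237 CPM against 10.7, 10.0 and 6.41.

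Fenestrated capillary genes other than Plvap, which the gate set to 0, were low. Of the 7 list genes 6 were lower in all 3 libraries, Plvap counted, and 0 higher. Rgcc, a cell cycle regulator, stood at 10.9, 58.5 and 0 CPM against 1828, 2215 and 2986. Esm1, a secreted proteoglycan, stood at 38.1, 117 and 63.9 CPM against 673, 776 and 881. The venous genes Nr2f2, Gas6 and Jam2, all 3 that reached the level, were lower too. Of the general markers, Pecam1 stood at 781, 908 and 965 CPM against 766, 919 and 818, Cdh5, the adherens junction cadherin of endothelium, at 599, 578 and 684 against 434, 488 and 441, and Egfl7, a secreted endothelial factor, at 1638, 1774 and 1183 against 1322, 1977 and 1396. Emcn stood at 7046, 6487 and 5056 CPM against 3469.9, 3665 and 3712.

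The promoters of Ehd3 and Sost, the genes that define the largest subset below, are shown as the 250 bases before the RefSeq start (GRCm38.p6), 5' to 3' on the gene's strand. Capitals mark GGAA or its reverse complement TTCC, the core letters that ETS-family factors bind. Ehd3 lies at 17:73804134-73832094 and Sost at 11:101962458-101967015 in GENCODE M21, and the Ehd3 window, chr17:73804591-73804840 on the plus strand, also lies in an exon of a retained-intron transcript of Ehd3.
Ehd3: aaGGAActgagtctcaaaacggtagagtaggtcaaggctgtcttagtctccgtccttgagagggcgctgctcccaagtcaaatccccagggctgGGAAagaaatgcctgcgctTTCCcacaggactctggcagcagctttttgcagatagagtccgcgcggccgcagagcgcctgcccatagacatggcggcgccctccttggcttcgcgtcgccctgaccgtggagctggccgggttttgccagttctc
The Sost window is chr11:101967016-101967265, on the minus strand.
Sost: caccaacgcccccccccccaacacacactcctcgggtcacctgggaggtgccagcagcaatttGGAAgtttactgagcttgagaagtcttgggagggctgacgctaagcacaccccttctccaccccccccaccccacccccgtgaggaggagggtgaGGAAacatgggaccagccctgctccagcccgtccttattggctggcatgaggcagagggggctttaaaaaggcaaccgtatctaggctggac
The Ehd3 window held 3 matches and the Sost window 2. Of 32851 promoter windows of the same length 93.4% held at least 1, with a median of 3, so the letters do not set these promoters apart.

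At least 2 UMIs of Ehd3 and Sost together were present in 118 of the 207 endothelial-panel members, 58, 45, 14 and 1 by library. Ehd3 was detected in 117 of the 118 and Sost in 57. By library Sost was found in 33 of 58 (56.9%, exact 95% interval 43.2 to 69.8), 21 of 45 (46.7%, 31.7 to 62.1), 2 of 14 (14.3%, 1.78 to 42.8) and 1 of 1. The subset was chosen on Ehd3 and Sost, so these shares are a description, and the intervals cover counting error over barcodes of single libraries only. Over all endothelial-panel members, which were not chosen on Sost, it was found in 34, 28, 6.45 and 100% by library. In the Ehd3/Sost subset, Sost UMIs numbered 81, 119, 2 and 3, beside 631, 870, 317 and 6 Ehd3 UMIs.

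Ptgis, the prostacyclin synthase, was like Sost lower in wild type 1 than in both mutants in the Ehd3/Sost subset. It stood at 81.1 and 90.7 CPM in the mutants. No Ptgis UMI was found in wild type 1, whose 103498 UMIs allow up to 29.0 CPM. None was found in wild type 2 either, but its 6336 UMIs allow up to 473 CPM, above the mutant values. The wild-type values of this subset rest on 14 and 1 barcodes. The edgeR test over the 4 libraries took all gate members with at least 2 UMIs of Ehd3 and Sost, without the panel limit. These numbered 59, 45, 14 and 3. In wild type 2 they held 66921 UMIs, of which the endothelial-panel member held 6336. The other barcodes there, of 18026 and 42559 UMIs, had 0 panel UMIs and carried Ptprc. In that test 0 of 4068 genes passed and 268 had an unadjusted p under 0.05. Ptgis had an edgeR adjusted p of 0.406 there. Sost, which helped to choose the members tested, had a log2 difference of 3.26 (edgeR adjusted p = 0.367).

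Arterial-list genes were carried both by the Ehd3/Sost subset and apart from it. At least 2 UMIs over Gja5, Gja4, Sox17, Bmx, Fbln5 and Sema3g were present in 110 endothelial-panel members, of which 75 also belonged to the Ehd3/Sost subset and 35 did not (13, 12, 10 and 0 by library). In the 118, Sox17, a transcription factor of arterial endothelium, was detected in 76 and Gja4, the gap junction protein connexin 37, in 56. Fbln5, an elastic-fibre protein, was detected in 26 and Gja5, connexin 40, in 7. Stmn2 of the arterial list stood at 287, 216 and 155 CPM in the Ehd3/Sost subset of mutant 1, mutant 2 and wild type 1.

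The 35 barcodes with arterial genes only had a different profile. Sox17 was detected in 34, Fbln5 in 25, Sema3g in 22, Gja4 in 17, Gja5 in 10 and Bmx in 8. Cldn5, the main tight-junction claudin of continuous endothelium, stood at 1123, 1405 and 1188 CPM against 13.5, 11.7 and 0 in the Ehd3/Sost subset. Cldn5 is not among the arterial genes that define the arterial-only barcodes. It is a panel gene, so its UMIs helped to choose the members of both subsets. Jag1, a Notch ligand, stood at 288, 798 and 821 CPM against 3.38, 29.2 and 9.66, and Mgp, an inhibitor of vessel calcification, at 86.4, 3261 and 1296 against 3.38, 70.2 and 0.

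Several further genes separated the subsets in the same direction in each of the 3 libraries. Vim, Tspan8, Vegfc, Hpgd, Lef1 and the capillary-list gene Igfbp3 were higher in the arterial-only barcodes, Vim at 1152 to 3434 CPM against 0 to 243. Sema5a, Lpl, Erc2, Igfbp5, Cd300lg and Akap12 were higher in the Ehd3/Sost subset. Emcn, a sialomucin of capillary and venous endothelium, stood at 8006, 7604 and 7053 CPM in the Ehd3/Sost subset and 1842, 1908 and 907 in the arterial-only barcodes. Kdr, the main VEGF receptor, stood at 1639.8, 1377 and 1488 and 259, 191 and 64.8 CPM. Subsets were cut from the same counts, so these differences are descriptions.

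Aqp1, a water channel of the descending vasa recta, marked part of the arterial-only barcodes. It stood at 5585, 486 and 821 CPM there and was detected in 7 of 13, 4 of 12 and 4 of 10, against 13.5, 14.6 and 29 CPM in the Ehd3/Sost subset. Slc14a1, the urea transporter of the same vessels, was detected in 2 of the 35. In mutant 1 the arterial-only barcodes had the highest Aqp1 and the lowest Mgp and Fbln5 of the 3 libraries.

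The 54 endothelial-panel members with neither marker set were shallow, with a median of 920 UMIs against 5553.5 in the Ehd3/Sost subset. They carried capillary genes. Igfbp3, a capillary-list gene, stood at 647, 1011 and 2561 CPM against 0, 2.92 and 9.66 in the Ehd3/Sost subset. In the arterial-only barcodes Igfbp3 was also present, at 1123, 312 and 410 CPM, so it did not set the 54 apart from those. Npr3 stood at 216, 108 and 603 CPM against 0 in each library of the Ehd3/Sost subset. A Plvap count of 0 depended on depth. Thinning each endothelial-gate barcode with 2000 UMIs or more to 2000 raised the share with Plvap at 0, among those with at least 3 panel UMIs, from 12, 7.85 and 3.44% to 14.6, 10.1 and 5.45% in mutant 1, mutant 2 and wild type 1.

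Ehd3 and Sost were not limited to Plvap at 0. With the Plvap limit dropped and at least 3 panel UMIs kept, 708 barcodes held at least 2 UMIs of Ehd3 and Sost, of which 118 (16.7%) had Plvap at 0, 39 had 1 to 4 Plvap UMIs, 119 had 5 to 19 and 432 (61.0%) had 20 or more. Ehd3 stood at 2440, 2071, 746.7 and 483.9 CPM across these bins, over all libraries. Lpl stood at 585.9, 297.5, 30.7 and 4.80 CPM, and Plat at 6198, 3409, 624.0 and 352.9 CPM. Pi16 stood at 1371, 721, 173 and 36.0 CPM. Summed over all libraries, these 3 genes, which the bins did not use, were lower in each following bin. By library there were exceptions. From 5 to 19 Plvap UMIs to 20 or more, Lpl went from 0 to 13.0 CPM in mutant 1. Pi16 went from 11.6 to 20.8 CPM in wild type 1 at the same step. In wild type 2, with at most 3 barcodes per bin, Lpl and Plat did not fall at each step.

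Rgcc and Igfbp3, both genes of the capillary list, ran the other way. Rgcc stood at 14.7, 122.0, 1666 and 2957 CPM, and Igfbp3 at 2.68, 190.7, 1347 and 1644 CPM. Sost stood at 274.2, 331.8, 23.4 and 9.60 CPM, and its second bin was above the first in mutant 2 and wild type 1, the latter on 6 barcodes. The 39 barcodes with 1 to 4 Plvap UMIs, which the gate's limit of 0 left out, thus lay between the Plvap-negative subset and the rest in Lpl, Plat, Rgcc and Igfbp3.

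**Figure D4:**
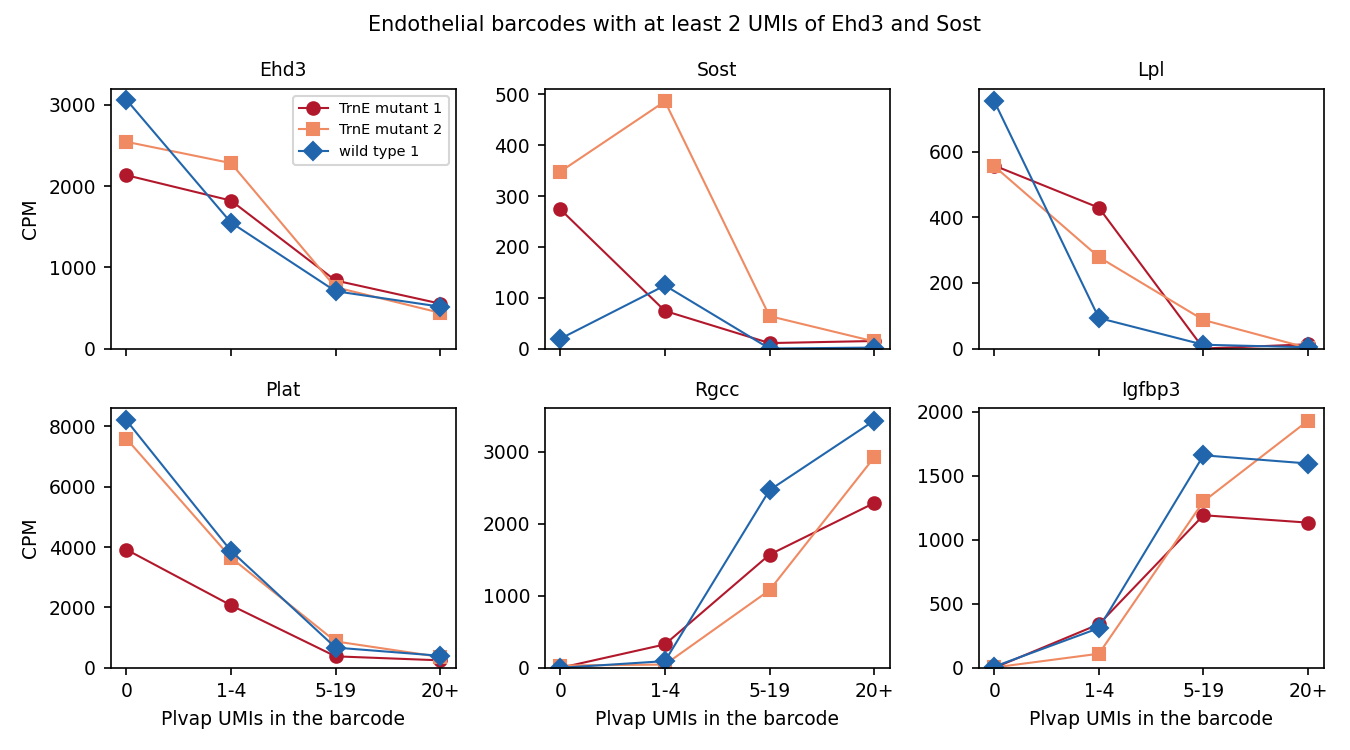
CPM of 6 genes (y axes, each from 0) in endothelial barcodes with at least 2 UMIs of Ehd3 and Sost, by Plvap UMIs in the barcode (x axis), 1 line per library for the 3 libraries with more than 7 such barcodes in all. Plat and Lpl are high at 0 Plvap UMIs and low from 5 on, and Rgcc and Igfbp3 the reverse.

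Beyond the marker lists, the endothelial-panel members differed from Plvap-positive barcodes in several gene groups. Flt1, a VEGF receptor that binds ligand with little signalling, stood at 713, 592 and 678 CPM against 1815, 1723 and 1855, while Kdr stood at 1406, 1163 and 1061 against 1012, 728 and 847 and Nrp1, a co-receptor, at 1504, 1685 and 1732 against 663, 734 and 692. Of 11 measured genes of the VEGF and angiopoietin list, Kdr, Nrp1 and Ptprb were higher in all 3 libraries. Another 7 were lower, among them Flt1, Flt4, Tek, Tie1 and Nrp2. Kdr and Flt1 are gate genes, and Ptprb, Tek and Tie1 are panel genes that helped to choose these members. Against Plvap-positive barcodes with at least 3 panel UMIs, 3 were again higher and 7 lower. Vegfa itself stood at 73.5, 72.5 and 57.5 CPM against 9.94, 5.35 and 5.29, below the level set for the count.

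Most measured genes of BMP signalling, which the list joins with TGF-beta, were higher. Of 11 measured, 8 were higher in all 3 libraries and 0 lower, beside 19.1% and 23.1% of all genes. Among the 8 were Eng, a panel gene that helped to choose these members, and Sost of the glomerular list. Bmp6, a ligand that endothelium secretes, stood at 476, 321 and 281 CPM against 44.1, 37.4 and 19.2, and the inhibitory Smad6, which is also in the glomerular list, at 305, 367 and 409 against 76.7, 68.2 and 72.7. The receptor genes Acvrl1, Bmpr2 and Eng and the target Id1 were higher as well, Acvrl1 at 212, 271 and 217 CPM against 139.6, 179 and 141.

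Genes of the interferon response and of MHC class I were lower in the endothelial-panel members. Of 19 measured interferon genes 16 were lower in all 3 libraries and 0 higher, and of 12 MHC class I genes 12 were lower, against the 23.1% over all genes. Rsad2, an antiviral enzyme, stood at 386, 253 and 217 CPM against 1271, 1163 and 1099. Isg15, a ubiquitin-like modifier, stood at 89.8, 96 and 109 CPM against 383, 324 and 225. H2-K1, a classical class I heavy chain, stood at 1736, 2216 and 1732 CPM against 2359.6, 3976 and 3325, and none of these groups overlapped.

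Both counts were as large without 2 barcodes described below, 16 of 20 and 12 of 12, and against Plvap-positive barcodes with at least 3 panel UMIs, 17 of 20 and 12 of 12. Lists of lipid uptake and of vascular tone moved both ways. Of 7 lipid uptake genes Lpl and Cd300lg were higher in all 3 libraries and Fabp4, Fabp5 and Cd36 lower, and of 8 genes of coagulation and vascular tone Plat and Edn1 were higher and Ptgs1, Thbd and Ednrb lower. Fabp4, a fatty acid binding protein, stood at 1202, 772 and 1291 CPM against 5232, 5727 and 5837, and Ednrb, an endothelin receptor, at 218, 173 and 159.8 against 352, 679 and 1253. Of 7 basement membrane and matrix genes measured, 5 were lower, among them Col4a1 and Col4a2, the collagen IV chains of general basement membrane, Col4a1 at 370.0, 293 and 288 CPM against 605, 753 and 459.

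Other lists moved in part or not as a group. Of 16 measured genes of junctions and caveolae 8 were higher in all 3 libraries, among them Cav1, Cav2 and Cavin2, which build caveolae. The 8 also held the gate gene Cdh5 and the panel gene Cldn5. Plvap and Jam2 were the 2 lower. Cavin2 stood at 694, 791 and 748 CPM against 182, 227 and 212. Of 7 laminar flow genes Klf2, Klf4 and Slc9a3r2 were higher and Thbd, thrombomodulin, was lower. Of 5 Notch genes Notch1 and Jag1 were higher, and of 7 glycolysis and hypoxia genes Gapdh, Aldoa, Pkm and Pgk1 were lower.

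Single barcodes carried part of some sums. In mutant 2, 1 endothelial-panel member held 31467 of the 31589 UMIs of Igkc, Ighm and Jchain, immunoglobulin genes, and 48552 UMIs in all out of 427292. In wild type 1, 1 barcode of 25662 UMIs held 228 of the 230 UMIs of Slc34a1, Slc5a12 and Lrp2, proximal tubule genes, out of 156437. Of the podocyte genes, Podxl, which endothelium also expresses, had 452 UMIs, while Nphs1 and Wt1 were at 0 in all 207. Prox1, Lyve1, Pdpn, Mmrn1 and Ccl21a, lymphatic genes, were at 0 as well.

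Cd74, the invariant chain of MHC class II, was detected in 91.0, 66.7 and 45.2% of endothelial-panel members in mutant 1, mutant 2 and wild type 1. In T cell gate barcodes, which should express little of it, the shares were 88.4, 79.2 and 51.2%, at median depths of 3891, 5363 and 4885 UMIs, against 3447.5, 5402 and 4526 in the endothelial-panel members. Cd74 stood at 2709.6, 857 and 153 CPM in endothelial-panel members, 2379.5, 2629 and 2508 in Plvap-positive barcodes and 6118, 2813 and 4969 in the T cell gate. The share of barcodes in mutant 1 was near that of its T cell gate and the others were below theirs, so a UMI of Cd74 did not set these barcodes apart from the T cell gate.

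Mitochondrially encoded mRNAs, whose translation needs the transfer RNA of TrnE, were higher in endothelial-panel members than in Plvap-positive barcodes. Of 11 measured, 11 were higher in all 3 libraries, with a median difference of 0.27 on the log2 scale (10 CPM added). mt-Co3, a complex IV subunit, stood at 6428, 6981 and 8610.5 CPM against 5400.1, 6004 and 6776. Nuclear genes of complex I showed no such shift, with 2 of 34 higher and 7 lower.

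Between mutant and wild type, the mitochondrial share of UMIs in the gate was 3.42% ± 0.425 (SD, n = 2) and 3.92% ± 0.576 (SD, n = 2), a difference that did not pass an exact two-sided permutation test over libraries (p = 0.667), which cannot go below 0.33 with 2 against 2. In endothelial-panel members it was 3.42 and 4.41% for mutants against 4.73 and 2.86% for wild types, the last on 1 barcode. The ranges of the groups overlapped. mt-Nd6, the only mRNA of the light strand, stood at 19, 21.1 and 44.7 CPM in endothelial-panel members, on few UMIs.

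The share of filtered barcodes in the gate was 1.34 and 2.57% for mutants against 1.92 and 4.11% for wild types (1.95% ± 0.869 against 3.02% ± 1.54, SD, n = 2 each; exact two-sided permutation p = 0.667). Restricted to endothelial-panel members the order turned, to 1.02 and 0.827% against 0.537 and 0.0156% (exact two-sided permutation p = 0.33, the smallest possible). The B cell genes Cd79a, Bank1 and Fcrl5 were highest in wild type 2, the library with the highest gate share, while Siglech was lowest there. In wild type 2 few endothelial barcodes of any kind were recovered, so its low share was shared with Plvap-positive barcodes.

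The Plvap-negative share of endothelial-gate barcodes was 17.3 and 23% for mutants against 12.6 and 88.0% for wild types (20.1% ± 4.00 against 50.3% ± 53.3, SD, n = 2 each; exact two-sided permutation p = 1.00). Among barcodes with at least 3 panel UMIs it was 14.0 and 9.08% against 3.99 and 2.86% (exact two-sided permutation p = 0.33). After thinning to 2000 UMIs the latter shares became 14.6 and 10.1% against 5.45 and 12.1%, and the groups overlapped, wild type 2 on 4 of 33 barcodes. Loss of cells in dissociation and a different number of such cells in the tissue cannot be told apart from these shares.

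For gene levels, UMIs summed over all gate members were compared between 2 mutant and 2 wild-type libraries with the quasi-likelihood test of edgeR. Of 10341 genes tested, 0 passed an adjusted p of 0.05 (0.0%), and 231 had an unadjusted p under 0.05. The smallest adjusted p was 0.869. With DESeq2 4 genes passed, Sost among them. Of endothelial-panel members alone, 36 of 4966 genes passed, 18 in each direction, with wild type 2 resting on 1 barcode. The sums mix cell types in differing parts, since 100 of 131 and 75 of 233 mutant members were endothelial-panel members, against 31 of 111 and 1 of 264 wild-type members.

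Of the 12 glomerular-list genes, 0 passed, with a median log2 difference of 2.12, beside -0.03 over all genes, and 9 had both mutants above both wild types, as had 19.3% of all genes. Of the 15 arterial-list genes 0 passed, with a median of 1.36 and 4 not overlapping. The 16 general endothelium genes, which are the gate and panel genes, had 0 past the threshold and a median of 2.45. Of these, 11 had both mutants above both wild types, so the shift did not set the glomerular list apart from general endothelial genes.

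Sost had the largest difference of the glomerular list. Over all members it stood at 159.8, 60.1, 2.32 and 0.794 CPM, a log2 difference of 6.26 (SE 0.83), which did not pass (edgeR adjusted p = 0.869). Over all members both mutants lay above both wild types. Among endothelial-panel members wild type 2 was the highest, at 473 CPM on 1 barcode, against 223, 278 and 12.8 CPM. In wild type 1 Sost was detected in 2 of 31 such members. Ehd3 over all members stood at 1225, 447, 372 and 5.56 CPM, a log2 difference of 2.12 (edgeR adjusted p = 0.869), and 0.01 among endothelial-panel members without wild type 2. In that fit, which has 1 residual degree of freedom and wild type 1 as the only wild-type library, Sost had 4.37 (edgeR adjusted p = 8.33e-10). With wild type 2 and its 1 barcode it had 3.01 (edgeR adjusted p = 0.0170). S100a8, a neutrophil protein, had the smallest p of all genes, at 81.8, 86.4, 0 and 1.06 CPM with a log2 difference of 6.52 (edgeR adjusted p = 0.869).

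**Figure D5:**
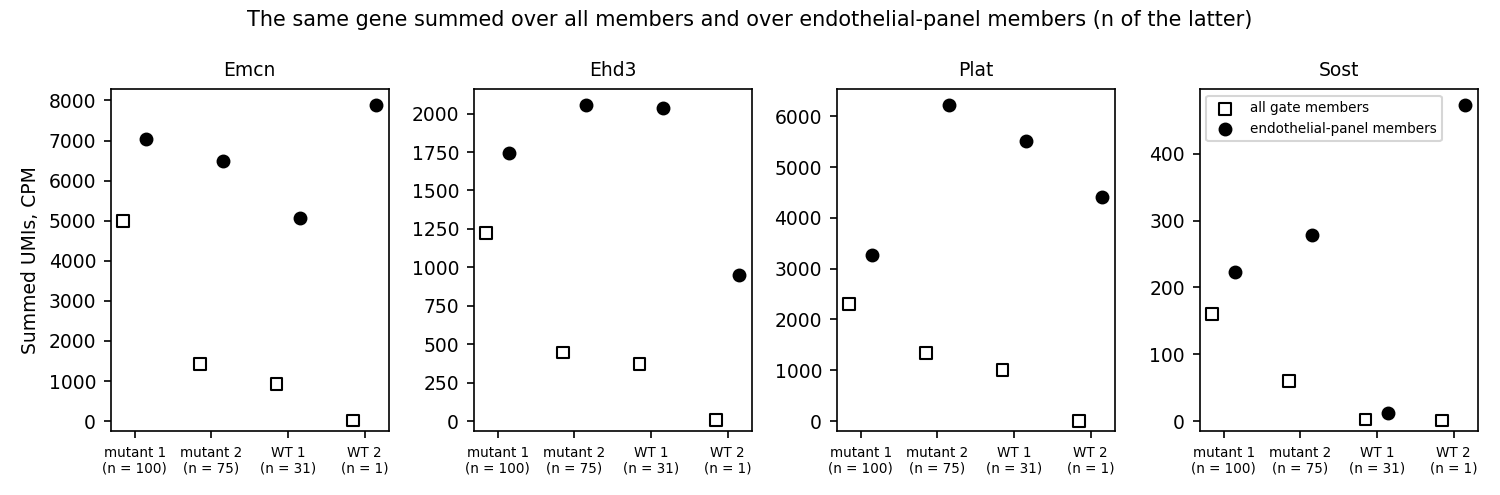
CPM (y axis) of 4 genes summed over all gate members (open squares) and over endothelial-panel members (filled circles) per library, with the number of the latter in parentheses. Over all members Emcn, Ehd3 and Plat follow the number of endothelial-panel members, and over the latter alone they lie in 1 range in mutant 1, mutant 2 and wild type 1, while Sost is low in wild type 1.

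Lists of stress and metabolism genes held no gene past the threshold. The 15 immediate early genes had a median log2 difference of 0.11, and the smallest p was that of Fosb, an AP-1 subunit, at 13.3, 13.6, 59.1 and 68.9 CPM, with both mutants below both wild types (log2 difference -2.31, edgeR adjusted p = 0.869). The 14 integrated stress response genes tested, which respond to uncharged transfer RNA, had a median of -0.17, and Ddit3 stood at 20.9, 21.7, 11.6 and 10.9 CPM. The 13 mitochondrially encoded mRNAs had a median of -0.25, with both mutants below both wild types in 2, beside 18.7% of all genes. The 35 nuclear complex I genes had a median of 0.46 with both mutants above both wild types in 16, beside 19.3% of all genes, and 0 past the threshold.

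Whether the mutant difference itself differed between Plvap-negative and Plvap-positive barcodes was tested as an interaction in edgeR with the library as a block. Of 12415 genes tested 0 passed (0.0%), 268 had an unadjusted p under 0.05, and with DESeq2 0 passed. Cxcl9, a chemokine that interferon gamma induces, had the smallest p, at 0, 26.8, 102 and 0.530 CPM in gate members and 2.39, 26.1, 1.67 and 0 CPM in Plvap-positive barcodes (edgeR adjusted p = 1). Endothelial-panel members gave 192 genes without wild type 2, a fit in which wild type 1 is the only wild-type library, and these calls are not read further.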

How the data were processed

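The members and gene lists were chosen with earlier results of these data known. The authors deposited UMI counts per gene and barcode, made with Cell Ranger 7.0.0 for both mutants and 7.1.0 for both wild types, per the file headers, so version and group coincide. The build was mm10, per the submitters' processing notes. Barcodes with at least 500 UMIs, 200 genes and at most 50% mitochondrial UMIs were kept, and the gate was applied to raw counts with Python 3.11.15. Scrublet was run per library through scanpy 1.11.5 and its calls were kept in the main analysis. Barcodes are not replicates, so UMIs were summed per library and tested with edgeR 4.0.16 (R 4.3.3; filterByExpr, TMM, quasi-likelihood test, Benjamini-Hochberg over all genes, threshold 0.05). DESeq2 1.42.0 was an alternative. Shares were compared by exact two-sided permutation over libraries, and share intervals are Clopper-Pearson. Counts of list genes against Plvap-positive barcodes used genes whose mean reached 50 CPM, and log2 differences with 10 CPM added.

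Data were simulated over 10341 genes for the comparison of all members. Changes of 2-fold, 4-fold and 16-fold were planted in 67, 67 and 66 of the genes with higher counts. Of these, 0%, 5.97% and 78.8% were recovered, and the rates do not cover genes with lower counts. Named genes are the glomerular and arterial lists, the gate genes, mitochondrially encoded mRNAs, up to 3 genes of smallest p per function list, and the 10 genes of largest fold in each direction of an untested contrast. Other genes, such as Siglech, Ace, Treml4, Cd74, Fabp4, Cxcl9 and S100a8, were chosen after their values were seen. The split by 10 endothelial genes and the contrasts within it were added after the data were seen. Promoters are RefSeq's for GRCm38.p6, in which 9 of the 12 glomerular genes were matched.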

Additional observations from a re-analysis of the deposited data

How the results depend on the processing

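Differences are mutant minus wild type. The gate's share of filtered barcodes, -1.06 percentage points, turned to 0.274 with an endothelial sum of at least 8, 0.443 without members carrying other-lineage UMIs and 0.648 with endothelial-panel members alone. Leaving out single libraries gave -2.15 to 0.0300. The Plvap-negative share, -30.2 points, turned to 11.8 without other-lineage members and 8.14 with endothelial-panel members, and leaving out libraries gave -67.9 to 7.49. Both positive ends were without wild type 2. The mitochondrial share, -0.498 points, turned to 0.122 in endothelial-panel members and ranged from -0.905 to -0.0902 without single libraries.

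The count of genes between mutant and wild type, 0, became 429 without the filter on low counts, 4 with DESeq2 and 36 with endothelial-panel members. Leaving out single libraries gave 0 to 188, the latter with endothelial-panel members and without wild type 2. The interaction count, 0, became 115 without the filter. Without single libraries it was 0 to 264, with 264 without wild type 1 and 192 with endothelial-panel members without wild type 2. The cause was not tested. The remaining 44 of these values kept their direction and side of the threshold. Sost stayed higher in mutants in all 18 alternatives, with a log2 difference of 3.01 to 6.83, and passed in 4 of them. Ehd3 ranged from 0.01 to 7.05 and passed only without the filter (edgeR adjusted p = 0.0361). The replicate block left 0 genes called, and same-numbered libraries correlated by 0.171 over only 2 pairs, so the numbers were not taken as pairing. The interaction with a replicate block was not run, because the number is nested in the library block. Wild type 2 is limited by its number of barcodes, with 1 endothelial-panel member.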
